A study of Homo sapiens with 3 samples.

Results

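In Hep3B cells, a human hepatocellular carcinoma line, 618 stretches of 1 kb lost DNA methylation in both of the SOX4 knockout lines, and they are described here together. The autosomes were divided into fixed windows of 1 kb, and the level of a window was the mean methylation level of its CpGs that had at least 10 reads in every library. A window with at least 5 such CpGs was compared, and it was taken as a member when its level in each knockout line lay 25 percentage points or more below its level in the parental cells. This held for 618 of 111495 compared windows (0.554%), and the opposite, a rise by as much in both lines, was found in 76 (0.0682%). A window that starts below 25% in parental cells cannot fall by 25 points, so the members are also set beside the 73630 windows with a parental level of at least 25%, called the methylated windows here, of which they were 0.839%.

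The study dealt with SOX4, a transcription factor of the SOX family, and its link to STAT6. Per the submitters, the methylation libraries were made to learn how SOX4 acts on gene expression by way of DNA methylation. Parental Hep3B cells gave 1 library, and each of 2 lines in which SOX4 had been disrupted with CRISPR/Cas9 in earlier work, called line 1 and line 2 after the numbers in their labels, gave 1 library. Genomic DNA was captured with the EPIC probe set and treated with bisulfite before sequencing, so only CpGs that the probes reach were read. The edit at SOX4 was not checked in these data, and the labels do not say whether each line grew from a single cell. CpG reads numbered 96987706 in line 1, 104702738 in parental cells and 133170621 in line 2.

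In vertebrate DNA, methyl groups sit mainly on the C of CpG dinucleotides. CpG-rich stretches, called CpG islands, lie at many gene starts and are usually free of methylation, whereas scattered CpGs between and within genes are usually methylated. In cancer cells the methylation of CpG-poor DNA is often incomplete over long domains, and it can drift as a culture is passaged or a line is grown from few cells.

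The windows are given in GRCh37, the build of the files. The genes beside them were found from RefSeq promoter sequences of GRCh38.p14, whose spacing of CpGs was matched to the CpG positions in the files. In this way 11302 of 26246 autosomal genes (43.1%) had at least 1 start placed. A named gene is therefore the nearest placed start, and a start that was not placed can lie nearer. The 4 sequences below are the 250 bases before the placed starts of the protein-coding genes with the most compared CpGs in that stretch that also lay in a member window. The last, KCNAB1, had as many as PDE7B, MYO15A and PLBD1, which are not printed. They were chosen after their values were seen, and they show how many CpGs, and in what surroundings, carry the fall. Each is written 5′ to 3′ along the gene's strand, from RefSeq (GRCh38.p14), with the CpGs compared in the member window in capitals.
NTN4: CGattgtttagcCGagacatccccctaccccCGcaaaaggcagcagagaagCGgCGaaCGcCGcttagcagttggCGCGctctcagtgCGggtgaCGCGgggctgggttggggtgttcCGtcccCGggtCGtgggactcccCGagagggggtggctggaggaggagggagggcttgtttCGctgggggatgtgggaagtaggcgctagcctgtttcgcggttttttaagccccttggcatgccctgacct
PCDH15: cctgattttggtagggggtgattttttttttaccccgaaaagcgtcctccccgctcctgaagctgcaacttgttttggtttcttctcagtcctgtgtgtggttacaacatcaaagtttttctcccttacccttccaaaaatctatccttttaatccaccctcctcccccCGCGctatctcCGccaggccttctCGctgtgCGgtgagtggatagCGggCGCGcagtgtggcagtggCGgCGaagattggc
LMNTD1: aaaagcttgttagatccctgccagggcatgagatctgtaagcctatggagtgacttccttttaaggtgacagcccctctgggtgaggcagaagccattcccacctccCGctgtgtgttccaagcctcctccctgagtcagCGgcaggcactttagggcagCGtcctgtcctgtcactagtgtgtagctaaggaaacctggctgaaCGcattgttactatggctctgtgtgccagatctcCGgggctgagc
KCNAB1: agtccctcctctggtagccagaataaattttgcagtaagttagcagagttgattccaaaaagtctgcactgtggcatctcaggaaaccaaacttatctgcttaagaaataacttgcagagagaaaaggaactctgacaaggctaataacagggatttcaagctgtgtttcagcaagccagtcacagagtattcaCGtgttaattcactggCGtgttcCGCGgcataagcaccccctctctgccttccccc

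The first of these, before the start of NTN4 (chr12:95791156-95791405, minus strand), is the most CpG-rich. NTN4 encodes netrin-4, a secreted protein of basement membranes. The 17 CpGs in capitals had a mean level of 46.7% in parental cells, 0.873% in line 1 and 13.1% in line 2, over 1046, 1106 and 1597 reads. All 17 CpGs lay below parental in both lines. The whole member window (chr12:96185001-96186000 in GRCh37) held 24 compared CpGs, all lower in both lines, and its level fell from 47.1% to 1.63% and 14.4%. Thus the parental cells were about midway between bare and methylated over a CpG-rich stretch, and line 1 was close to bare.

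The stretch before PCDH15 (chr10:55627943-55628192, minus strand), which encodes a protocadherin of hair cell tip links, carries its 10 compared CpGs in the part nearest the start. Their mean level was 89.8% in parental cells, 34.4% in line 1 and 47.3% in line 2. The stretch before LMNTD1 (chr12:25648579-25648828, minus strand), which encodes a protein with a lamin tail domain, holds 5 CpGs, and all were compared. They stood at 87.3% in parental cells, 32.0% in line 1 and 60.1% in line 2. KCNAB1 encodes a beta subunit of voltage-gated potassium channels, and the stretch before it (chr3:156290787-156291036, plus strand) holds 4 CpGs, all near the start. Their levels were 89.6%, 15.8% and 50.9% in the same order. In contrast to NTN4, these 3 stretches were highly methylated in parental cells. Line 2 kept an intermediate level in all 3, and line 1 did so before PCDH15 and LMNTD1 but stood lower before KCNAB1.

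The windows were chosen by their levels in all 3 libraries, so the levels are given as a description, with no test. In the parental library the median level was 74.4%, from 28.5% to 99.1%. In line 1 the median was 28.2%, from 0% to 66.9%, and in line 2 it was 43.4%, from 1.90% to 70.9%. The median difference from parental was -42.9 points in line 1 and -28.9 points in line 2. The mean level that remained in the knockout lines was 35.1% ± 9.71 (SD, n = 2 lines). Line 1 kept a median of 39.2% of the parental level and line 2 kept 58.4%. So the members were, as a rule, windows that went from mostly methylated to partly methylated. Few lay under 20% in both lines (8.58%) or in line 2 (9.22%), while 31.4% did in line 1. A fall of 50 points or more was seen in 30.3% of members in line 1, and in 2 windows in line 2, where 60.4% of the falls were under 30 points.

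**Figure D1:**
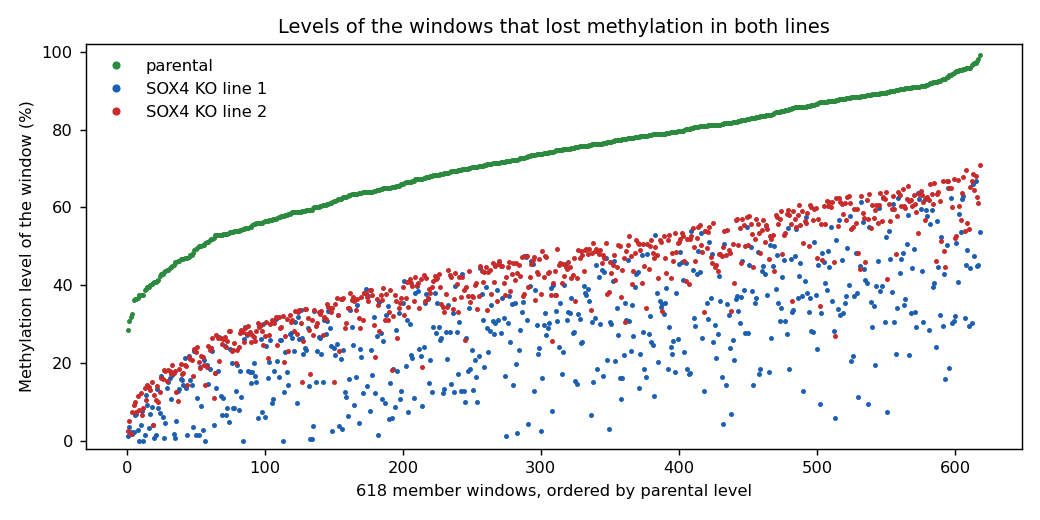
The methylation level (%) of each of the 618 windows in parental cells (green), line 1 (blue) and line 2 (red), with the windows ordered by parental level. The line 2 points form a band near the selection limit of 25 points below parental, with a median level of 43.4%, and the line 1 points spread further down, with a median of 28.2%.

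The count was limited by line 2. In line 1, 4634 windows (4.16%) lay 25 points or more below parental, and in line 2, 702 (0.63%). The members made up 88.0% of the windows that fell in line 2 and 13.3% of those that fell in line 1. In the 4016 windows that passed in line 1 alone, line 2 lay below parental in 98.5%, with a median difference of -14.8 points. In the 84 windows that passed in line 2 alone, the median difference of line 1 was -18.9 points. Over the methylated windows the median differences were -3.91 points in line 1 and -2.25 points in line 2. Both lines are set against the same parental library, so a chance excess there adds to both falls.

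At the limit the windows inside and outside were alike. The 3 members with the smallest passing falls were chr16:29607001-29608000, chr1:230528001-230529000 and chr8:127102001-127103000, in each of which the smaller fall was just over 25 points. The first of them had levels of 64.0% in parental cells, 39.0% in line 1 and 38.0% in line 2. Just outside lay chr8:59611001-59612000 (24.99 points), chr3:8677001-8678000 (24.99 points) and chr9:98339001-98340000 (24.98 points). The window on chromosome 3, whose nearest placed start is that of SSUH2 at 8.48 kb, had levels of 73.6%, 29.2% and 48.6% in the same order.

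Windows with 20 or more compared CpGs were rare among the members, at 3.24% against 13.6% of the methylated windows. The 6 members with the most compared CpGs held 30 to 39, and they show how a fall was spread along the DNA. The clearest lay at chr15:75019001-75020000, 1.13 kb upstream of the placed start of CYP1A1, a cytochrome P450 enzyme that the aryl hydrocarbon receptor induces. All 35 of its CpGs were lower in both lines. Its pooled reads were methylated in 87.9% of 2606 in parental cells (exact Clopper-Pearson 95% interval 86.6% to 89.1%), in 21.1% of 2909 in line 1 (19.6% to 22.6%) and in 54.0% of 3451 in line 2 (52.3% to 55.6%). Its compared CpGs lay 12 to 604 bp from the window start, and at each of them line 2 stood between line 1 and parental. At some the lines were close, as at 600 bp, with 46.7% in line 1 and 56.25% in line 2. The intervals of the pooled reads take in counting error alone, and whether PCR copies of a molecule were removed from the counts is not known.

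At chr12:54611001-54612000, 28.1 kb from the placed start of LOC105369777, 39 CpGs had a mean level of 91.8% in parental cells, 28.5% in line 1 and 61.9% in line 2. Of these CpGs, 37 were lower in both lines. At chr12:31405001-31406000, 29 of 30 CpGs were lower in both lines, and the mean level fell from 86.5% to 37.5% and 59.9%. Its last 2 CpGs were at 83.0% or more in every library, so the fall ended inside the window.

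The other 3 of these windows were mixed. At chr17:76128001-76129000, 13.5 kb from the placed start of C17orf99, 30 of 37 CpGs were lower in both lines and the levels were 73.4%, 46.3% and 45.5%. Here the fall lay mostly in the first CpGs of the window, and line 1 and line 2 did not differ by more than 1 point in the mean. At chr2:238535001-238536000, 35.6 kb upstream of the placed start of RAB17, a small GTPase of epithelial cells, 25 of 32 CpGs were lower and the levels were 61.0%, 29.1% and 34.1%. At chr6:146755001-146756000, 28 of 32 CpGs were lower and the levels were 68.3%, 29.2% and 41.2%. In the last of these windows single CpGs ran from 4.55% to 90.6% in parental cells, so the window mean joins CpGs that differ.

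**Figure D2:**
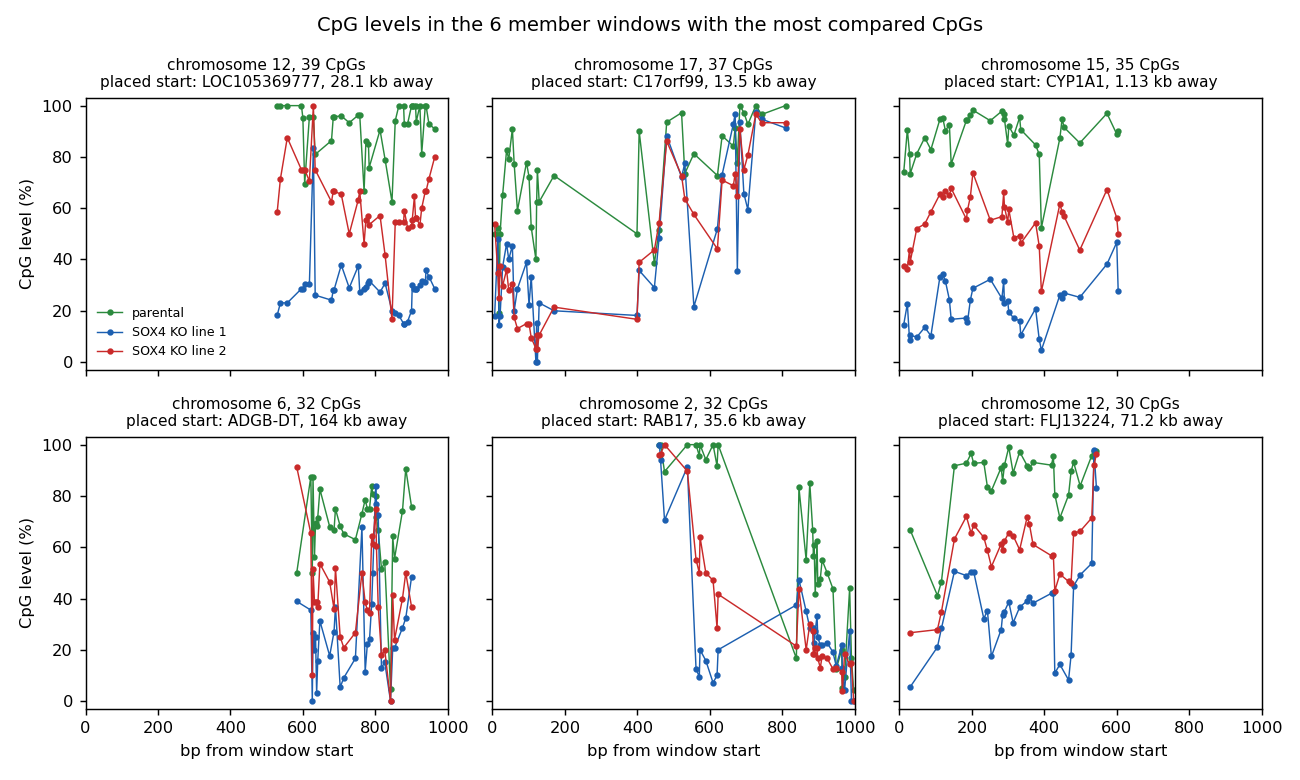
The level (%) of each compared CpG against its distance in bp from the window start, in the 6 members with the most compared CpGs, for the parental library (green), line 1 (blue) and line 2 (red). Near CYP1A1 all 35 CpGs lay below parental in both lines, with line 2 between, and near C17orf99 and RAB17 the fall took in 30 of 37 and 25 of 32 CpGs.

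Across all members, 4556 CpGs were compared, of which 93.7% lay below parental in both lines and 59.7% by 25 points or more. Over the CpGs of the methylated windows these shares were 41.7% and 4.19%. Every compared CpG was lower in both lines in 401 of 618 members (64.9%). The means of these same CpGs chose the members, so these shares are in large part set by the rule and are a description. The members' CpGs were at 0 in line 1 in 15.1% of cases, in line 2 in 2.99%, and at 100% in parental cells in 9.50%.

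The members differed from other windows in the number of compared CpGs, which the selection used only as a minimum of 5. This number depends on capture and reads, and it is not CpG density. Members held a median of 6 compared CpGs, against 7 in the methylated windows and 9 in all windows. These CpGs spanned a median of 168.5 bp in members and 222 bp in the methylated windows. With CpGs of fewer reads counted too, the medians were 7 and 9. By that count, 8.41% of members and 20.1% of the methylated windows held 20 or more. Fewer than 10 were compared in 86.7% of members (exact 95% interval 83.8% to 89.3%), against 64.5% of the methylated windows. Among methylated windows with 5 or 6 compared CpGs, 377 of 28919 were members (1.30%). The share was 0.856% with 7 to 9 CpGs, 0.416% with 10 to 14, 0.314% with 15 to 19, 0.269% with 20 to 29 and 0.166% with 30 to 49. With 50 or more it was 0 of 1181, an exact interval that reaches 0.312%. The same order was found at matched parental levels: between 50% and 75% the share was 2.33% with under 10 CpGs, 0.679% with 10 to 19 and 0.382% with 20 or more. A mean over fewer CpGs also varies more, and the part of that in this order was not tested. The 76 windows that rose in both lines had fewer than 10 CpGs in 72.4% of cases.

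The parental level of the members was high but short of full. It was 75% or more in 48.5% of members and in 57.3% of the methylated windows. Above 90% it was 10.4% of members against 36.2%, and between 50% and 75% it was 43.0% against 21.7%. By parental level, the share of windows that were members rose from 0.170% at 25% to 40% (16 of 9406) to 2.05% at 70% to 80% (156 of 7603, interval 1.75% to 2.40%), and was 0.240% above 90% (64 of 26684). The low share at the left end is set in part by the rule, since a window at 30% must lose nearly all of its methylation to pass. The low share above 90% is not set in this way.

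**Figure D3:**
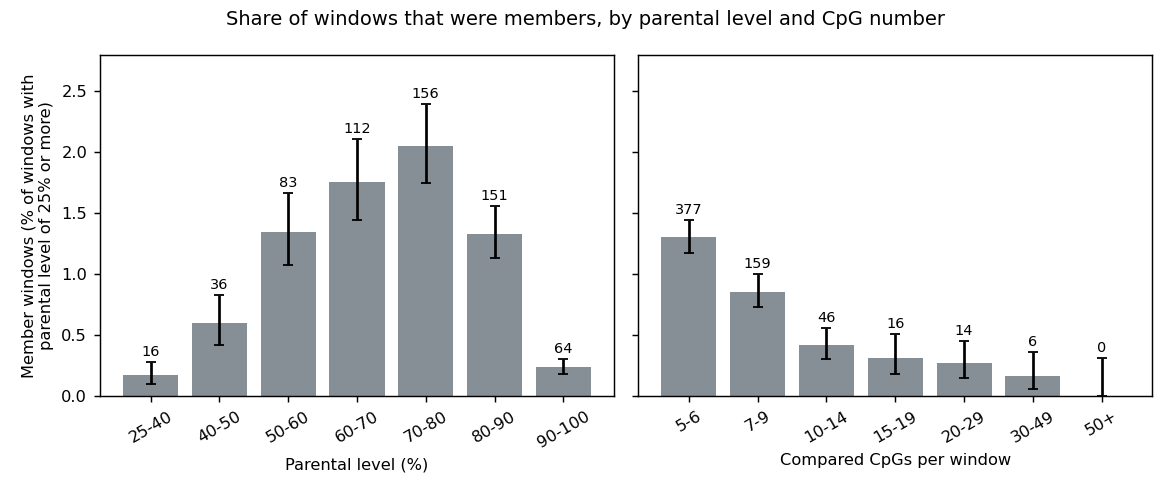
The share of methylated windows that were members (%), by parental level and by the number of compared CpGs, with exact 95% intervals. The share peaked at 2.05% for parental levels of 70% to 80% and fell from 1.30% with 5 or 6 CpGs to 0.166% with 30 to 49.

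Members were also read at lower depth. Their median reads per CpG were 26.2 in parental cells, 27.7 in line 1 and 34.2 in line 2, against 31.9, 29.4 and 39.7 in the methylated windows. In a member a median of 173.5 parental reads, 180 reads of line 1 and 221 of line 2 stood behind the level. With a minimum of 20 reads per CpG, 281 of 70538 compared windows passed (0.398%), 200 of them members here. In the main selection the share was 0.554%, and with a minimum of 5 reads it was 0.637%. The set of compared windows also changed with the minimum, and the part of depth in the choice of the members was not tested.

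The windows at the ends of the range show how much methylation could remain. The 5 lowest levels, averaged over the knockout lines, included chr19:21452001-21453000, 59.2 kb from the placed start of ZNF708, at 37.5% in parental cells, 0% in line 1 and 8.04% in line 2. In line 1 its 87 reads held 0 methylated, an exact interval that reaches 4.15%. At chr3:125544001-125545000 the levels were 37.6%, 0% and 8.53%, and at chr3:156838001-156839000 they were 40.6%, 4.16% and 4.16%. At chr6:39194001-39195000 they were 31.8%, 2.22% and 1.90%, and at chr3:38691001-38692000 they were 28.5%, 1.28% and 2.59%. All 5 had a parental level under 41% and ended nearly bare in both lines. A window at such a parental level must end low to pass, so this is in part set by the rule.

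The 5 highest remaining levels lay at windows that were almost fully methylated in parental cells. At chr16:21387001-21388000 the level went from 97.1% to 66.9% in line 1 and 68.0% in line 2. At chr12:116990001-116991000, 6.19 kb upstream of the placed start of MAP1LC3B2, an autophagy protein of the LC3 family, it went from 96.7% to 65.9% and 68.6%. The others were chr7:38972001-38973000 (95.6%, 62.9% and 67.8%), chr3:159173001-159174000 (94.0%, 62.5% and 64.9%) and chr8:103500001-103501000 (93.6%, 65.0% and 66.7%). In these windows the lines differed by under 5 points.

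Line 1 lay below line 2 in 91.9% of members, against 66.4% of the methylated windows. It was lower by 25 points or more in 14.9%, against 1.17% of the methylated windows and 0.778% of all windows. Over all windows, line 1 was below line 2 in 63.5%. The levels of both lines chose the members, so these shares are a description. The median ratio of the fall in line 2 to the fall in line 1 was 0.696. In 50 members line 1 was at or above line 2, by at most 11.2 points, and in 23.6% of members the lines differed by under 5 points.

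Single CpGs were compared between the lines by Fisher's exact test of methylated and unmethylated reads, adjusted over all autosomal CpGs (Benjamini-Hochberg), with a difference of at least 25 points. Of the 4556 member CpGs, 531 (11.7%) were lower in line 1 than in line 2, against 1.07% of all CpGs and 1.62% of those in the methylated windows. Only 1 was higher, against 0.183% of all and 0.235% of those in the methylated windows. The reads of both lines also chose the members, so these shares are in part set by that choice and are given as a description. The test compares 2 libraries and not conditions. The lower CpGs fell in 234 of the 618 members.

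The 5 members with the widest gap between the lines were chosen for it, so their values are given with no test. The widest was at chr12:133043001-133044000, 38.0 kb upstream of the placed start of FBRSL1, with 88.8% in parental cells, 9.49% in line 1 and 57.0% in line 2. At chr4:36908001-36909000 the levels were 93.9%, 18.7% and 65.0%. At chr2:158277001-158278000 they were 72.2%, 2.05% and 43.2%. At chr21:26735001-26736000 they were 81.5%, 4.33% and 49.8%, and at chr21:28319001-28320000 they were 71.9%, 1.25% and 42.2%. In all 5, line 1 was far lower and line 2 was intermediate.

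At the other end, 5 members had nearly equal levels in both lines. Besides the window at chr3:156838001-156839000 given above, chr2:26707001-26708000 had 62.1% in parental cells, 32.5% in line 1 and 32.5% in line 2. At chr17:10430001-10431000, 22.0 kb from the placed start of MYH2, a fast skeletal muscle myosin, the levels were 52.9%, 17.5% and 17.5%. At chr16:5479001-5480000 they were 51.8%, 24.0% and 23.9%, and at chr3:182218001-182219000 they were 64.0%, 38.1% and 37.9%. These windows held 5 to 7 CpGs, and a difference of a few points would not be detectable at that depth.

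The CpGs that had too few reads for the selection gave a check that the rule did not use, although they lie on the same DNA fragments and in the same libraries. In 345 members there were 1495 such CpGs. Their pooled reads were methylated in 63.9% in parental cells, 37.0% in line 1 and 47.2% in line 2. In the methylated windows the same kind of CpG gave 70.8%, 64.8% and 67.7%. In 186 members these CpGs had at least 10 reads in each library, and 148 of them were lower in both lines, against 43.2% of the methylated windows with as many reads. A fall of 25 points or more in both lines was found in 58 of 186, against 3.06%.

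**Figure D4:**
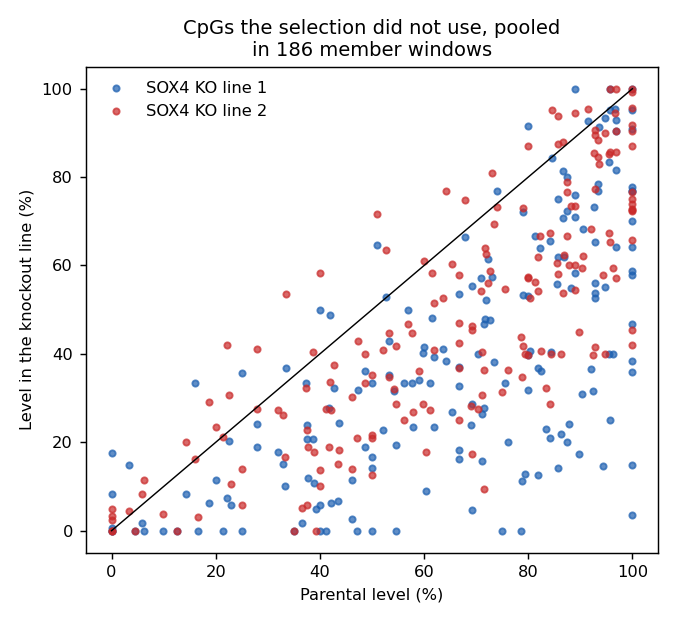
The pooled level (%) of the CpGs that the selection left out, in 186 members with at least 10 such reads per library, with the parental level on the horizontal axis and line 1 (blue) or line 2 (red) on the vertical. Most points lie under the diagonal of no change, and 148 of the 186 windows lie under it in both lines.

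Next to the members the fall was much smaller, which is in part set by leaving members out of the neighbours and surroundings. Of the windows directly beside a member, 162 were compared and were not members themselves. Their median levels were 55.1% in parental cells, 36.5% in line 1 and 48.6% in line 2, with median differences of -11.0 and -6.58 points. They were lower in both lines in 86.4% of cases, against 55.4% of all windows, and by 10 points or more in 34.0%, against 9.08% of all windows. Among the 118 of them with a parental level of at least 25%, the share was 45.8%, against 13.2%. Within 50 kb, 398 members had at least 3 other compared windows, whose mean differed from parental by a median of -8.30 points in line 1 and -4.22 points in line 2. Around the methylated windows the medians were -3.47 and -1.73 points. The parental level of the surroundings was similar, at 51.5% around members and 53.5% around methylated windows. Thus members lay in surroundings with larger falls than those of other methylated windows. That the falls of the members were larger still is a description, since the rule chose the members by their falls.

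**Figure D5:**
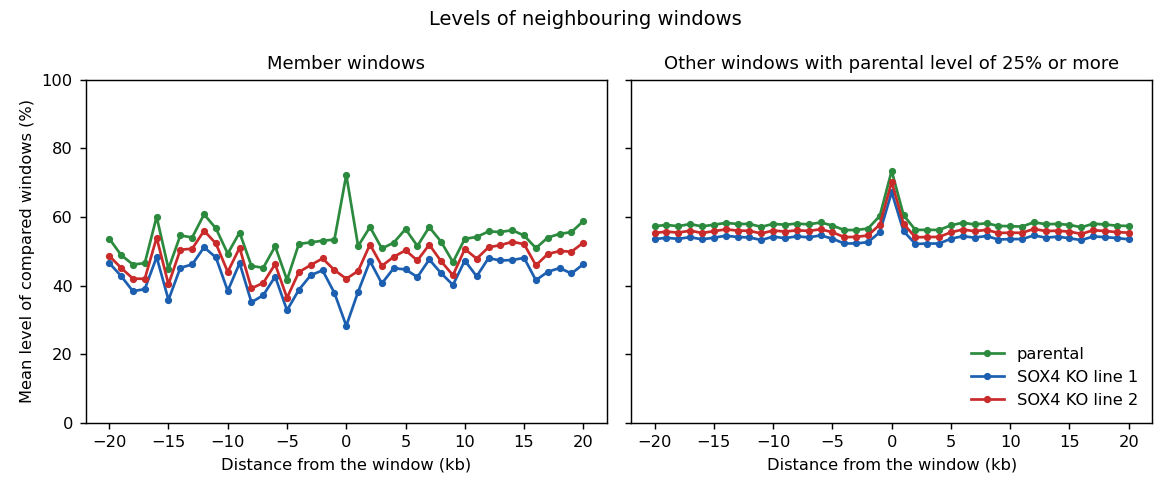
The mean level (%) of compared windows up to 20 kb on either side of the members. Parental cells are in green, line 1 in blue and line 2 in red. The second panel gives the same around the other methylated windows. At the members the means were 72.3%, 28.3% and 42.0% in that order. At 1 kb they were 53.4%, 37.9% and 44.5% on the left and 51.5%, 38.2% and 44.3% on the right. At 20 kb they were 53.7%, 46.6% and 48.7% on the left and 58.8%, 46.2% and 52.5% on the right.

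The members were mostly alone. Another member lay within 10 kb of 37 of them (5.99%), and 581 stood alone. Among the 384 members that had any other compared window within 10 kb, 9.64% had a member there. Of the compared windows within 10 kb of a member, counted once for each member they lay near, 3.86% were members, and within 50 kb 2.40% were. The share was 0.554% over all windows and 0.839% over the methylated windows. There were 17 groups of members with starts no more than 10 kb apart, of which 15 were pairs. Members were found in 317 of 555 bins of 5 Mb, with 9 at most in 1 bin.

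The largest group held 4 members among 7 compared windows at chr7:156001-176000, near the end of the chromosome. The nearest placed starts were those of LINC03014 on one side and FOXL3 on the other. The 4 members had levels of 65.5% to 82.8% in parental cells, 18.0% to 28.2% in line 1 and 26.4% to 50.3% in line 2. The next group held 3 members, which were all the compared windows at chr1:217251001-217263000, downstream of the placed start of ESRRG. ESRRG encodes estrogen-related receptor gamma, an orphan nuclear receptor. From 11.2 kb to 166 bp from the placed start, the levels were 64.8%, 10.8% and 36.2% in the first window, 85%, 27.6% and 58.4% in the second, and 78.8%, 38.0% and 47.8% in the last. Read dosage in this 5 Mb bin was 1.31 in line 1 relative to parental, and the part of a gained segment in the levels was not tested. The third group was a pair at chr17:2807001-2808000 and chr17:2815001-2816000, upstream of the placed start of RAP1GAP2, which encodes an activator of the GTPase of Rap1. Its levels were 69.9%, 10.1% and 25.8%, and 69.8%, 12.9% and 38.7%.

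Members lay farther from placed gene starts and from bare CpG-rich DNA than the methylated windows did. Only promoters with at least 4 CpGs could be placed, so starts with fewer CpGs are missing from these distances. The median distance to a placed start was 83.5 kb, against 47.2 kb for the methylated windows, chromosome 8 left out. A placed start lay within 1 kb of 4.84% of members (29 of 599), against 7.43% of the methylated windows, and the window itself held one in 2.00%, against 3.68%. Of methylated windows beyond 50 kb from any placed start, 1.13% were members, and of those within 1 kb but not holding a start, 0.642%. The nearest window with 20 or more CpGs and a parental level under 20%, a stand-in for an unmethylated CpG island, was at a median of 82 kb, against 42 kb. CpG-poor windows are themselves far from islands, and the 2 properties were not separated.

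Of the 29 members within 1 kb of a placed start, those beside named protein-coding genes are given here, chosen after their values were seen. CCDC172, a coiled-coil protein, had 18 CpGs within its start region that fell from 83.8% in parental cells to 17.8% in line 1 and 46.7% in line 2, all 18 lower in both lines. Beside H2AJ, a variant of histone H2A, 10 CpGs fell from 96.6% to 30.3% and 66.7%. Beside PDE7B, a phosphodiesterase of cyclic AMP, 6 CpGs fell from 75.6% to 14.6% and 41.8%. Beside BOD1, a protein of chromosome alignment in mitosis, 5 CpGs fell from 45.1% to 1.79% and 17.5%, and beside RIBC2, a protein of ciliary microtubules, 5 CpGs fell from 55.9% to 5.86% and 30.4%. In each of these, as before NTN4, line 1 was the lowest.

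Beside some other starts the lines differed by under 7 points. The window of LOXHD1, a protein of hair cell stereocilia, held 14 CpGs at 46.7% in parental cells, 15.8% in line 1 and 19.7% in line 2. That of ZNF611, a zinc finger protein, held 10 CpGs at 69.3%, 32.8% and 33.9%. That of MYO15A, an unconventional myosin of hair cells, held 5 CpGs at 72.1%, 35.3% and 41.3%, and that of PCP4L1 held 8 CpGs at 90.3%, 62.4% and 64.0%. The window of NME5 was of this kind (75.2%, 36.8% and 41.9%), and in those of MEDAG (75.2%, 27.7% and 42.6%) and RAVER2 (87.3%, 44.7% and 61.5%) the lines lay further apart. Among noncoding genes, PACERR, a long noncoding RNA beside PTGS2, had 19 CpGs at 84.9%, 46.5% and 53.0%, and PLBD1-AS1 had 18 CpGs at 90.1%, 22.3% and 48.0%. The window of PLBD1-AS1 also held 4 compared CpGs of the stretch before the protein-coding gene PLBD1, at 90.2%, 39.5% and 66.6%. Expression was not measured in these files.

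Of 6 gene lists, none had a member within 1 kb of a placed start. A compared window lay within 1 kb of a placed start for 5 of 26 genes of liver plasma proteins and enzymes, 0 of 14 liver transcription factors, 13 of 17 germline genes often silenced by methylation, 10 of 17 tumour suppressors silenced in liver cancer, 9 of 11 folate enzymes and 10 of 37 SOX and STAT genes. At 0.554% of all windows, 0 among so few genes says little about these lists.

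Members were found on all 22 autosomes. Their share of the methylated windows was highest on chromosome 5 (54 of 3327, 1.62%, interval 1.22% to 2.11%), chromosome 12 (1.45%) and chromosome 3 (1.32%). It was lowest on chromosome 22 (0.373%, interval 0.171% to 0.706%) and chromosome 19 (0.411%). There the median difference of all methylated windows in line 1 was -2.34 and -2.63 points. On chromosomes 5, 12 and 3 it was -5.23, -3.80 and -4.15 points, against -3.91 points over all autosomes. The share and the median did not always go together, as chromosome 13 had a share of 0.486% and a median of -4.31 points. Neighbouring windows are not independent, so the intervals are too narrow. Read dosage, the number of reads per 5 Mb bin relative to parental, differed between the libraries on some chromosomes. Chromosome 11, at a dosage of 1.34 in line 1, held 1.01% members. Of the chromosomes with low dosage in line 1, chromosome 21 (0.781) held 0.893%, chromosome 13 (0.854) held 0.486% and chromosome 8 (0.870) held 0.609%. By the dosage of line 1 in their bin, the share was 0.572% under 0.85 (interval 0.350% to 0.882%), 0.548% from 0.85 to 0.95 (0.370% to 0.781%), 0.873% from 0.95 to 1.05 (0.795% to 0.955%), 0.801% from 1.05 to 1.15 (0.508% to 1.20%) and 0.950% at 1.15 or more (0.757% to 1.18%). The interval from 0.85 to 0.95 lay below that from 0.95 to 1.05, while all other pairs of intervals overlapped. The part of dosage in the falls was not tested.

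For the 5 members with the largest fall in both lines, the nearest placed starts were those of TENM2 at 587 kb, EGLN3 at 12.3 kb, LOC107987077 at 741 kb, GRIK4 at 68.9 kb and UNC80 at 100 kb. They held 5 to 8 compared CpGs, with levels of 5.88% to 33.1% in line 1 and 25.6% to 36.0% in line 2.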

How the data were processed

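Bisulfite sequencing after EPIC capture was measured in 3 Hep3B libraries. For each cytosine of a CpG, the authors deposited read counts, both methylated and in CpG context, and a methylation level as a fraction. The counts were used here. Per the submitters' processing notes the build was GRCh37. The aligner, the methylation caller and the treatment of PCR duplicates are not given in the sources used here.

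Strands were summed. The selection itself was not tested. Line 1 was compared with line 2 at 2204675 CpGs by a 2-sided Fisher's exact test, called at a Benjamini-Hochberg adjusted p under 0.05 and 25 points. Intervals are exact Clopper-Pearson at 95%. With 1 parental library, no value carries an error between parental cultures, and the spread of the knockout lines may be technical.

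RefSeq promoters (GRCh38.p14) were placed by the spacing of at least 4 CpGs, first those with 8 or more (9798, of which 9781 followed the order of their neighbours; mirrored spacings were placed 51 times). No promoter of chromosome 8 was used, and no coordinate was converted.

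Windows were named by rule: the 6 with the most compared CpGs, the 3 largest groups, the 5 highest and 5 lowest remaining levels, the 3 on either side of the limit, the 5 largest falls, and the 5 smallest and 5 largest differences between the lines. Alternatives changed the read minimum, the difference, the windows, the weighting, the strand, the depth and the lines required. The members, lists and tests were chosen with earlier results of these data known. Scripts were tested on simulated data. The software was scipy 1.17.1, numpy 2.4.6, pandas 2.3.3, numba 0.67.0 and matplotlib 3.10.9 under Python 3.11.15.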

Additional observations from a re-analysis of the deposited data

How the results depend on the processing

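Over 13 settings, 57 of 76 alternative values for 6 results stayed within 1.5 times the main count or within the error of the main value. With a minimum of 5 reads, 83.75% of members had fewer than 10 CpGs. With a minimum of 20 reads there were 281 members (0.398% of the windows then compared), 53.0% of them with a parental level of at least 75%. At 20 points there were 1538 members; 41.1% had such a parental level, 83.2% had fewer than 10 CpGs, 8.97% had another member within 10 kb, and 1073 of their CpGs differed between the lines. At 30 points there were 234 members, 57.3% had such a parental level, and 229 CpGs differed. With at least 10 CpGs per window there were 82 members, by construction 0% with fewer than 10 CpGs, and 182 CpGs differed. Thinned to the smallest depth of each CpG, 304 CpGs differed, fewer reads giving the test less power.

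With either knockout line left out, from 702 to 4634 windows passed, 37.5% to 47.7% had a parental level of at least 75%, 81.6% to 86.3% had fewer than 10 CpGs, 6.27% to 20.3% had another within 10 kb, and the remaining level was 33.0% to 41.9%. The upper count, 4634, is without line 2. Of the 618 members, 506 also passed with read-weighted means, 544 on the complementary strand alone and 547 after thinning. No paired analysis was possible because parental cells gave only 1 library.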
